A study of Mus musculus with 16 samples.

Results

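Peaks of THOC5-bound RNA that lie in internal exons are described here. An internal exon is an exon that is neither the first nor the last of its transcript. A peak was taken as an internal exon peak where the deposited annotation placed it in exon i of n of a transcript, with i above 1 and below n. Of 28998 peaks in 8 lists, 7491 (25.8%) met this rule, and they fell in 3463 different exons of 1579 genes. The lists come from RNA immunoprecipitation sequencing (RIP-seq) of primary mouse vascular smooth muscle cells, which recovers the RNA held by an antibody to THOC5. There are 4 conditions with 2 lists each. THOC5 OE cells carry the genotype label of THOC5 overexpression and were kept in osteogenic medium. GFP OE cells overexpressed GFP in the same medium, with the genotype label WT. Pi cells were WT in osteogenic medium, and Ctrl cells were WT in growth medium. The study has 16 samples, of which the other 8 are inputs, and the inputs were not used here. The labels give neither the mice, their age nor the vector. Nothing says that the 2 replicates of a condition were separate cultures, so a p-value measures only the spread between these lists.

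THOC5 belongs to the THO complex, which is loaded on nascent transcripts and hands spliced mRNA to the export machinery as part of the TREX complex. In mammals, TREX is recruited during splicing and assembles on exonic RNA close to exon junctions. Internal exons carry most of the coding sequence of long transcripts and are flanked by introns on both sides. Vascular smooth muscle cells cultured with high phosphate take on features of bone-forming cells, which is the setting of vascular calcification.

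Sequence could be shown for peaks in Akna and Nup214, where the RefSeq promoter table (build GRCm38.p6) happens to hold a start window of another gene over the exon peak. They are shown as the RNA under such a peak reads, on the strand of Akna or Nup214. Capitals mark the bases that lie under the peak in every list that has it. Akna encodes an AT-hook protein of the centrosome, and the window lies at chr4:63395064-63395363 on the minus strand, under the peak in exon 3 of 22.
Akna exon 3: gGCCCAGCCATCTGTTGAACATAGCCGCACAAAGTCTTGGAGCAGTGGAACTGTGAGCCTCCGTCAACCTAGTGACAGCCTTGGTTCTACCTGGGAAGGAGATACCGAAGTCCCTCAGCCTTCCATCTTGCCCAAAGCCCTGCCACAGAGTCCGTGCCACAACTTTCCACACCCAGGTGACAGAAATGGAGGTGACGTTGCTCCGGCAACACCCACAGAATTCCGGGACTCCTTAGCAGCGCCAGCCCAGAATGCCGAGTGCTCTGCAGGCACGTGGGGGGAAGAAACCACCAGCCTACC
Nup214 encodes a nuclear pore subunit of the mRNA export route, and the window lies at chr2:32017302-32017504 on the plus strand, at the downstream side of the peak in exon 22 of 36.
Nup214 exon 22: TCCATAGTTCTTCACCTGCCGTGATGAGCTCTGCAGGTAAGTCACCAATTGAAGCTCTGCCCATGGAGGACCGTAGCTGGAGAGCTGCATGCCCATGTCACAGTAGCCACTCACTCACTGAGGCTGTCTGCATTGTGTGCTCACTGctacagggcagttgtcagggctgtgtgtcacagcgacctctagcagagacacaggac
The Akna stretch is 300 bases long with 299 capitals and 58.0% G and C. Its peak was present in 7 lists, at percentiles of 59.9 and 64.4 in THOC5 OE lists, 54.4 and 62.4 in GFP OE lists, 76.7 in Pi replicate 2, and 43.4 and 62.8 in Ctrl. Pi replicate 1 had no peak in that exon. A percentile is the rank of a peak's score within its list, with 100 as the best. The score is the authors' own, on a scale not given in the sources used here, and serves only to order peaks within a list. The Nup214 stretch is 203 bases long with 146 capitals and 55.2% G and C. Its peak was present in 4 lists, at percentiles of 64.0 and 61.4 in THOC5 OE, 50.6 in Pi replicate 1 and 45.2 in Ctrl replicate 1. The letters GTAAGT, as at the start of many introns, occur in the Nup214 stretch on the sense strand, from base 32017338. They do not occur on either strand of the Akna stretch. Of all promoter windows read over the same length, 5.42% hold these letters on either strand at 203 bases and 7.65% at 300 bases. The 4 peak centres in Nup214 lie between 32017212 and 32017227, upstream of these letters and of the whole printed stretch, and the peaks reach past the letters. Exon ends were not given, so it is not known which bases of the stretch are exon and which are intron. Its label names the exon to which the peak was annotated.

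The lists differ in length and in peak width, and each list has 1 width for all its peaks. THOC5 OE lists hold 4618 and 4240 peaks, GFP OE lists 3711 and 2572, Pi lists 2666 and 3793, and Ctrl lists 2603 and 4795. The widths are 473 and 538 bp in THOC5 OE, 420 and 529 bp in GFP OE, 553 and 439 bp in Pi, and 443 and 415 bp in Ctrl. Read depth was not analysed here. Thoc5 itself had no internal exon peak in any of the 8 lists, and a single peak of another class in Ctrl replicate 2. Of the 11 smooth muscle markers, 5 had a peak of any class within the gene, and 2 of these 5 had one in an internal exon, where 38.9% of all bound genes did. Of the bound markers of other cell types (8 listed each), 1 of 2 endothelial, 0 of 1 fibroblast and 0 of 1 leukocyte markers had an internal exon peak. With so few bound markers, no order of cell types is read from these counts. Mylk, the myosin light chain kinase, had 2 to 5 bound internal exons in each of the 8 lists. Lmod1, a smooth muscle leiomodin, had a peak in exon 2 of 3 in Pi replicate 2 only, at percentile 32.9. The endothelial receptor gene Flt1 had 2 bound exons in THOC5 OE replicate 2 only, with a best percentile of 4.29. A peak marks recovered RNA, not the level of a transcript.

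Internal exons held between 22.5% and 30.5% of the peaks of a list. THOC5 OE lists held 1167 and 1002 internal exon peaks (25.3% and 23.6% of the list), GFP OE lists 1042 and 578 (28.1% and 22.5%), Pi lists 631 and 943 (23.7% and 24.9%), and Ctrl lists 795 and 1333 (30.5% and 27.8%). The 95% Wilson interval of a list's share reached at most 1.77 points to either side, and it covers counting error only. The mean share was 24.5% ± 1.16 in THOC5 OE, 25.3% ± 3.96 in GFP OE, 24.3% ± 0.844 in Pi and 29.2% ± 1.94 in Ctrl (SD, n = 2 lists each). Both Pi lists were below both Ctrl lists, while the THOC5 OE and GFP OE lists overlapped. Over all 4 conditions the means spanned 4.91 points, which an exact permutation of lists among conditions gave with p 0.343 (adjusted 0.514 over 3 such tests, smallest possible p 0.00952). The share was 4.91 points lower in Pi than in Ctrl (difference -4.91), the most extreme split of 2 against 2 lists, where the smallest exact permutation p is 0.333 (adjusted 1 over 9 tests). THOC5 OE minus GFP OE was -0.824 points and GFP OE minus Pi was 1.01 points, each with an exact permutation p of 1.

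**Figure D1:**
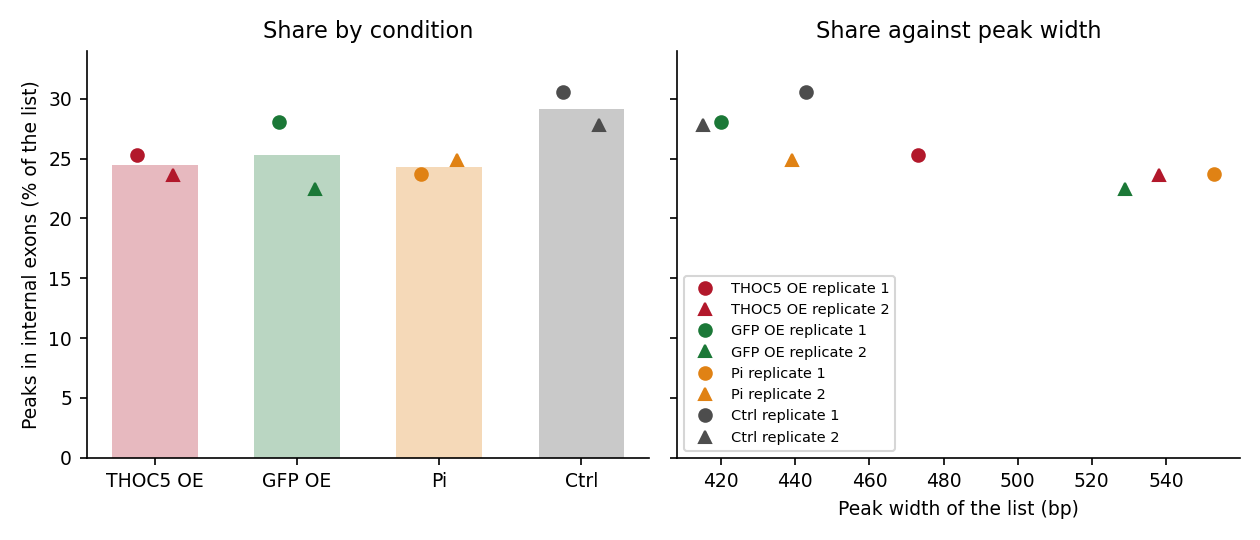
Left, share of each list's peaks that lie in internal exons (%), by condition; bars are means of 2 lists and the circle and triangle are replicates 1 and 2. Right, the same shares against the peak width of the list (bp); the 3 widest lists, at 529 to 553 bp, have the lowest shares, 22.5% to 23.7%.

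The share followed the peak width over the 8 lists, which have 1 width each. Pearson's r was -0.783 (exact permutation p 0.0259, adjusted 0.0778 over 6 relations) and Spearman's rho was -0.690 (exact permutation p 0.0694, adjusted 0.208). Without the 2 lists whose widths lie farthest from the median, r was -0.741. Neither coefficient passed 0.05 after adjustment. Both Ctrl lists are among the narrow ones, and the part of width in the lower share of Pi was not tested.

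Within their lists, internal exon peaks ranked high. Their median percentile was 67.5 and 66.6 in THOC5 OE lists, 66.3 and 68.3 in GFP OE lists, 64.3 and 65.1 in Pi, and 64.4 and 64.8 in Ctrl. Intron peaks of the same lists had medians of 45.0 and 44.2 in THOC5 OE lists, 44.0 and 44.7 in GFP OE lists, 45.5 and 45.9 in Pi, and 42.8 and 44.9 in Ctrl. Internal exons were thus above introns in 8 of 8 lists, by 21.3 points on average (SD 1.77, n = 8, 18.8 to 23.6 points per list; two-sided exact sign-flip permutation p 0.00781, the smallest possible). Peaks in first and last exons had medians from 45.7 to 61.8 and were below internal exons in 8 of 8 lists. That difference averaged 14.9 points (SD 5.01, n = 8, 4.72 to 19.3 points per list; exact sign-flip permutation p 0.00781). With lists cut to the 2572 peaks of the shortest it was 8.76 points (exact permutation p 0.0312). With only the peaks at or above the median score of their list, it was 3.89 points and did not pass 0.05 (exact permutation p 0.109). Peaks in 3' UTRs had medians from 48.8 to 69.0, above internal exons in THOC5 OE replicate 2 and GFP OE replicate 2 and below them in the other 6 lists. Of the 100 best peaks, internal exons held 50 and 53 in THOC5 OE lists, 57 and 55 in GFP OE lists, 48 and 46 in Pi, and 54 and 54 in Ctrl.

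**Figure D2:**
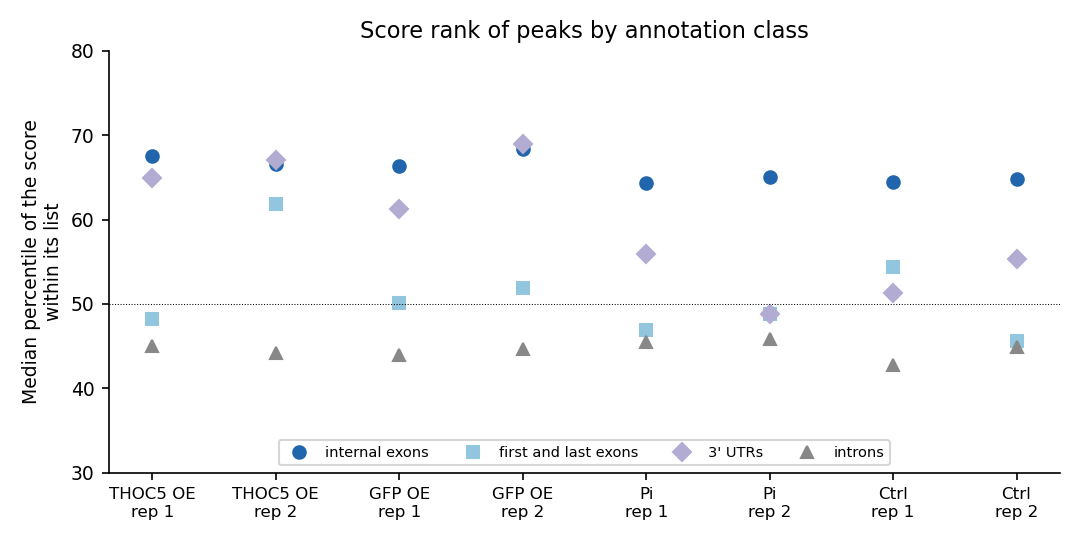
Median percentile of the score within its list (vertical axis, 100 is best) for internal exons, first and last exons, 3' UTRs and introns in each of the 8 lists; the dotted line is at 50. Internal exons lie at 64.3 to 68.3 in every list and introns at 42.8 to 45.9.

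No difference in this rank between conditions passed its test. The median percentile averaged 67.0 ± 0.661 in THOC5 OE, 67.3 ± 1.43 in GFP OE, 64.7 ± 0.581 in Pi and 64.6 ± 0.254 in Ctrl (SD, n = 2 each). The 4 lists of cells with an overexpression vector were all above the 4 lists of Pi and Ctrl, but the test over the 4 conditions gave an exact permutation p of 0.105 (adjusted 0.314). The test passed 0.05 in the absence of GFP OE replicate 1, where the range of means was 3.74 points against 2.73 points with all lists (exact permutation p 0.0286). GFP OE minus Pi was 2.63 points, the most extreme split of those 4 lists, with an exact permutation p of 0.333, the smallest possible. THOC5 OE minus GFP OE was -0.283 points and Pi minus Ctrl 0.0970 points, each with an exact permutation p of 1. Pi minus Ctrl was 5.86 points (exact permutation p 0.333) among peaks at or above the median score and 2.35 points (p 0.667) with lists cut to the shortest, where the range over the 4 conditions was 5.86 points (p 0.133) and 5.04 points (p 0.0762).

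Recurrence over the lists was uneven. Of the 3463 exons, 1940 (56.0%) had a peak in a single list, 642 in 2 lists, 290 in 3, 173 in 4, 136 in 5, 95 in 6, 84 in 7 and 103 in all 8. The 103 exons in all 8 lists are 2.97% of the internal exons, where 2.62% of all merged places of the series (324 of 12362) had a peak in every list. A place is the stretch of overlapping peaks over lists, at a minimum overlap of 1 base. Counted the same way, 101 internal exon places (2.93%) and 122 intron places (1.63%) were present in 8 lists. The higher share of internal exons did not hold at 3 to 6 lists, where intron places had the higher share. At 3 lists it was 9.08% for internal exon places and 11.3% for intron places. In a single list it was 54.7% and 52.1%. At 2 lists (18.9% and 18.7%) and 7 lists (2.32% and 2.27%) the shares were close. Exons found in more lists had better ranks, with a median percentile of 38.6 for peaks of exons in 1 list, 52.2 in 2 lists, 66.1 in 4, 79.6 in 5, 79.0 in 6 and 91.8 in 8. A peak near the end of a list is more easily missing from another list, so rank and recurrence are not separate measures.

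**Figure D3:**
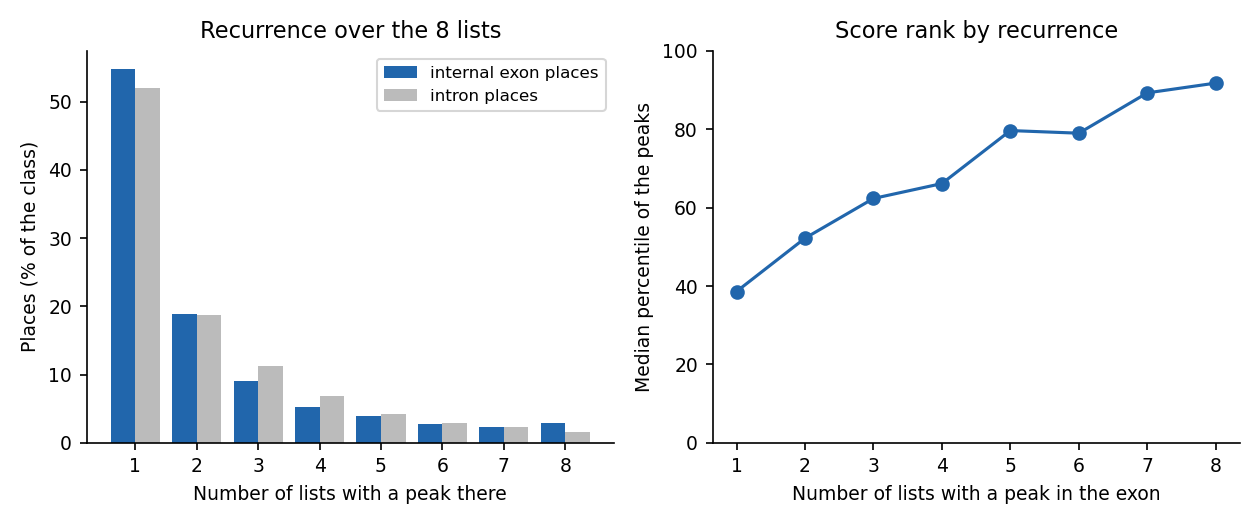
Left, share of merged internal exon places and intron places (%) by the number of lists with a peak there. Right, median percentile of the score of peaks by the number of lists in which their exon had a peak; it is 38.6 for exons of 1 list and 91.8 for exons of all 8.

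The 12 exons of all 8 lists with the best lowest percentile include genes of the cytoskeleton and of chromatin. Exon 52 of 93 of Dst, which links cytoskeletal filaments, stood at percentile 100 after rounding in each list (peak at chr1, 34228277 to 34228697). After it come Nisch exon 16 of 21, Prrc2c exon 19 of 35, the spectrin gene Sptbn1 exon 13 of 31, the dynein heavy chain gene Dync1h1 exon 8 of 77, Zfhx3 exon 2 of 10 and Nav2 exon 7 of 38, all with a lowest percentile of at least 98.8. Exon 3 of 36 of Kmt2a, a histone methyltransferase (chr9, 44847659 to 44848197), stood at 99.4 and 99.5 in THOC5 OE lists, 99.1 and 99.3 in GFP OE lists, 99.1 and 99.1 in Pi, and 98.8 and 99.1 in Ctrl. Exon 5 of 23 of Nsd1, another histone methyltransferase (chr13, 55247288 to 55247826), stood at 99.3 and 99.5 in THOC5 OE lists, 99.1 and 99.1 in GFP OE lists, 99.1 and 98.7 in Pi, and 98.9 and 99.0 in Ctrl. The choice by lowest percentile fixes a narrow range of ranks near the top of the scale. Exon 9 of 73 of Birc6, a giant ubiquitin-conjugating enzyme that restrains apoptosis (chr17, 74579909 to 74580324), ranged from 98.6 to 99.0. Exon 52 of 93 of Macf1, which links actin to microtubules (chr4, 123432255 to 123432793), ranged from 98.3 to 99.3, and Fam193b exon 8 of 11 (chr13, 55543013 to 55543551) from 98.0 to 99.1.

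Recurrence did not need a top rank. Of the 97 exons of all 8 lists in genes with a proper symbol, 37 had a lowest percentile over 90, and the median of the lowest percentile was 87.6. In 15 of these genes, 2 exons each were present in all 8 lists, among them Syne1 (exons 40 and 77), Syne2 (30 and 66), Vps13d (18 and 20), Kmt2c (14 and 43) and Mylk (16 and 22), named after their values were seen. Mylk exon 16 of 32 stood at 82.0 and 83.5 in THOC5 OE lists, 35.9 and 38.5 in GFP OE lists, 80.4 and 81.7 in Pi, and 89.5 and 92.1 in Ctrl. Both GFP OE lists were below the other 6 for this exon, which was singled out after its values were seen and was not tested.

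Peaks of the same exon in different lists need not lie at the same point. No exon lengths were given, so the distance between the outermost peak centres in an exon was taken as its least possible length. Among the 1523 exons found in at least 2 lists the median of this distance was 62 bp, with 212 exons over 300 bp and 41 over 1000 bp. Among the 103 exons of all 8 lists the median was 225 bp, with 35 exons over 300 bp and 7 over 1000 bp. More lists give more centres, and the distance can only grow with them. In 27 exons of 27 genes a list held 2 separate peaks. Shroom2 exon 4 of 10 (at least 1315 bp), Nsd1 exon 5 of 23 (1751 bp), Ylpm1 exon 5 of 21 (1141 bp) and Tnrc6c exon 5 of 22 (1716 bp) did so in 3 lists each. The greatest distance was 2026 bp, in exon 2 of 32 of Unc13c, which like Shroom2 and Ylpm1 is named after its values were seen.

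Bound exons came from transcripts with many exons. Counted per peak, the median transcript of an internal exon peak had 28 exons (3 to 157), and the median exon number was 11. The rule itself needs at least 3 exons, transcripts with more exons offer more internal ones, and genes with many peaks count many times. Exon 2 held 10.6% of the peaks and the last but 1 exon 3.06%, and 59.0% of the peaks lay before the middle of the exon order. These values were not set against those of all exons, bound or not. Genes with an internal exon peak had a median span of 75830 bp, against 36093 bp for the other bound genes and 17149 bp for protein-coding genes in general. The genes of the exons of all 8 lists had a median span of 143981 bp. Longer genes hold more places at which a peak can fall, and the part of gene length in these counts was not tested.

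Of 4061 genes with a peak in an exon, intron or UTR in any list, 1579 (38.9%) had an internal exon peak. In 117 of them every list held 1, and in 647 only 1 list did. THOC5 OE lists had 666 and 636 genes with an internal exon peak, GFP OE lists 566 and 395, Pi lists 473 and 623, and Ctrl lists 529 and 793. In the same list, 38.7% to 64.0% of these genes also had an intron peak. That part was 64.0% and 59.0% in THOC5 OE and 60.1% and 53.9% in GFP OE, above the 38.7% and 47.0% of Pi and the 42.2% and 51.3% of Ctrl. The same part was not taken over all bound genes of a list, and the difference was not tested.

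Most genes had a single bound exon. Over all lists, 940 of the 1579 genes (59.5%) had 1 bound internal exon, 143 genes (9.06%) had at least 5, and 36 had at least 10. The 143 genes hold 35.6% of all bound exons. The number of bound exons per gene and list was 1.74 and 1.57 in THOC5 OE lists, 1.83 and 1.46 in GFP OE lists, 1.33 and 1.50 in Pi, and 1.49 and 1.67 in Ctrl. All conditions overlapped with at least 1 other, with means of 1.66 ± 0.124 in THOC5 OE, 1.64 ± 0.262 in GFP OE, 1.42 ± 0.121 in Pi and 1.58 ± 0.128 in Ctrl (SD, n = 2 each). The test over the 4 conditions gave an exact permutation p of 0.543 (adjusted 0.543). Pi minus Ctrl was -0.163 (exact permutation p 0.667), THOC5 OE minus GFP OE 0.0120 (p 1) and GFP OE minus Pi 0.226 (p 0.667). The number moved with the number of internal exon peaks in the list (Spearman's rho 0.881, exact permutation p 0.00724, adjusted 0.0435). Pearson's r was 0.780 (exact permutation p 0.0241, adjusted 0.0778), and 0.874 without the 2 farthest lists. The number per gene is bound exons over genes, and bound exons nearly equal internal exon peaks, with 788 and 795 in Ctrl replicate 1. The 2 measures are thus not separate, and part of their relation is built in.

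The genes with the most bound exons encode very large proteins. Syne1 and Syne2 encode nesprins, which tie the nucleus to the cytoskeleton. Syne1 had 14 and 10 bound exons in THOC5 OE lists, 18 and 15 in GFP OE lists, 14 and 19 in Pi, and 12 and 16 in Ctrl, on average 14.8 per list (SD 2.96, n = 8) and 35 different exons of 146 in the transcript. Syne2 had 5 and 6 bound exons in THOC5 OE lists, 8 and 5 in GFP OE lists, 5 and 12 in Pi, and 10 and 11 in Ctrl. For Syne2 both THOC5 OE lists were below both Ctrl lists, and the Pi lists spanned that range. Vps13b and Vps13d encode lipid transfer proteins between membranes. Vps13b had 12 and 8 in THOC5 OE lists, 13 and 5 in GFP OE lists, 7 and 7 in Pi, and 8 and 11 in Ctrl, and Vps13d had 8 and 4 in THOC5 OE lists, 11 and 8 in GFP OE lists, 3 and 10 in Pi, and 8 and 7 in Ctrl. Utrn, which encodes the dystrophin relative utrophin, had 10 and 7 in THOC5 OE lists, 9 and 4 in GFP OE lists, 2 and 6 in Pi, and 10 and 8 in Ctrl. Both Pi lists were below both Ctrl lists for Utrn.

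Other members of this set varied more between lists. Dnah7b, an axonemal dynein heavy chain, had 11 and 7 bound exons in THOC5 OE lists, 14 and 6 in GFP OE lists, 2 and 5 in Pi, and 1 and 6 in Ctrl. Nbas, which takes part in transport from the Golgi to the endoplasmic reticulum, had 11 and 6 in THOC5 OE lists, 10 and 6 in GFP OE lists, 4 and 6 in Pi, and 0 and 5 in Ctrl. For both genes the highest counts were in the first replicates of THOC5 OE and GFP OE. Csmd1, a large membrane protein with complement control domains, had 9 and 4 in THOC5 OE lists, 2 and 0 in GFP OE lists, 3 and 9 in Pi, and 5 and 15 in Ctrl. The ubiquitin ligase gene Mycbp2 had 7 and 5 in THOC5 OE lists, 7 and 2 in GFP OE lists, 4 and 5 in Pi, and 4 and 13 in Ctrl. Nbea, which encodes neurobeachin, had 8 and 5 in THOC5 OE lists, 10 and 5 in GFP OE lists, 2 and 6 in Pi, and 2 and 8 in Ctrl. No gene was tested singly, since 2 lists a condition allow no p under 0.333 in a pair.

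**Figure D4:**
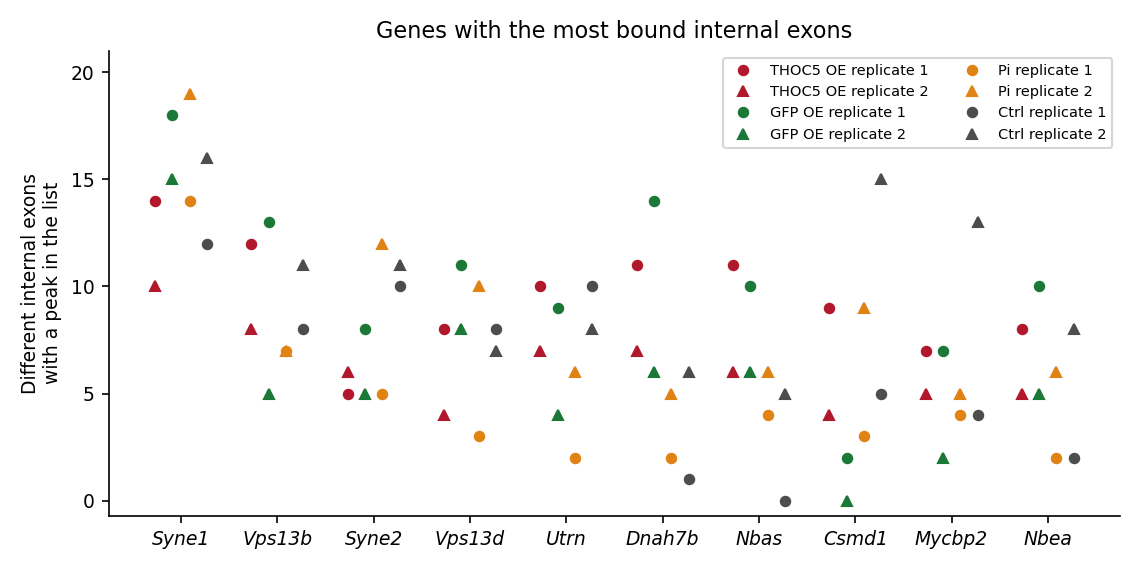
Number of different internal exons with a peak in each list (vertical axis) for the 10 genes with the highest mean; colours are conditions, circles replicate 1 and triangles replicate 2. Syne1 has 10 to 19 bound exons in every list, while Csmd1 ranges from 0 to 15.

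Gene groups differed in how many of their bound genes had an internal exon peak, where 38.9% of all bound genes had 1. Of the bound genes of the ubiquitin system (ligases, Birc6 and deubiquitinases) it was 19 of 21, of the chromatin regulators 30 of 35, of the motor proteins 17 of 20, of the vesicle and lipid transfer genes 18 of 22, and of the cytoskeletal linkers and spectrins 19 of 26. The lists hold many long genes and were chosen with earlier results known, so no more is read from these shares. In the group of giant cadherins and LDL receptor relatives it was 10 of 12, in DNA replication, repair and mitosis 14 of 18, in ion channels and transporters 8 of 13, in mRNA decay 11 of 18, in extracellular matrix 13 of 22, in splicing and translation 12 of 23, and in mRNA export, THO and nuclear pore 10 of 21. None of 7 bound genes of TGF-beta, BMP, Wnt and osteogenic signalling (of 20 listed) had an internal exon peak. Members with an internal exon peak in all 8 lists numbered 10 in the cytoskeletal group, 8 each among chromatin and vesicle genes, 6 in the ubiquitin system, 4 among motors, 2 each in splicing and translation and in ion channels, and 1 in mRNA decay. No member of the matrix, cadherin, export or DNA repair group reached all 8. Of all 1579 genes with an internal exon peak, 117 had 1 in all 8 lists. Those 4 groups hold 10 to 14 such genes each, so nothing is read from their lack of a member in all 8.

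Among the regulators of chromatin, Setd1a had the same single exon bound in every list (exon 14 of 19, percentiles 90.1 to 94.2), and Chd8, a chromatin remodeller, had exon 2 of 38 bound in every list (94.8 to 97.8). Among ubiquitin ligases, Herc1 exon 2 of 78 ranged from 88.7 to 95.0 and Hectd4 exon 61 of 76 from 84.6 to 91.6, both in 8 lists. Acin1, a splicing-associated protein, had exon 6 of 19 bound in 8 lists (96.7 to 98.6). In the mRNA decay group, the gene of the microRNA silencing factor Tnrc6c had exon 5 of 22 bound in 8 lists (92.7 to 95.4), and Smg6, the endonuclease of nonsense-mediated decay, had exon 2 of 19 bound in 7 lists (89.3 to 95.3), all but Pi replicate 1. Myosin gene Myo9a had exon 25 of 44 bound in 8 lists (88.2 to 93.1). Other exons of all 8 lists ranged more widely, such as Dnah7b exon 41 of 65 from 3.46 to 55.6.

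The export group includes THOC5's own complex. Thoc2, the scaffold subunit of THO, had 2 and 3 bound exons in THOC5 OE lists, 2 and 2 in GFP OE lists, 0 and 1 in Pi, and 2 and 1 in Ctrl, with a best percentile from 73.3 to 89.5 over 7 lists. Nup214 had 2 and 3 bound exons in THOC5 OE lists, 0 and 0 in GFP OE lists, 2 and 2 in Pi, and 2 and 2 in Ctrl. Nup214 was thus without a bound exon only in the GFP OE lists. Nup188, another pore subunit, had 1 and 1 in THOC5 OE, 0 in each GFP OE and Pi list, and 1 and 1 in Ctrl. Mcm3ap, which encodes the export factor GANP, had a bound exon in THOC5 OE replicate 2, GFP OE replicate 1 and both Ctrl lists. Of the group's 10 genes with an internal exon peak, 5 had 1 in both THOC5 OE lists, 1 in both GFP OE lists, 1 in both Pi lists and 5 in both Ctrl lists. Of all 1579 genes with an internal exon peak, 28.9% had 1 in both THOC5 OE lists, 17.8% in both GFP OE lists, 17.5% in both Pi lists and 21.8% in both Ctrl lists. With 10 genes, no order of conditions is read from the group's counts.

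Of the 14 genes for DNA replication, repair and mitosis with an internal exon peak, 7 had a bound internal exon in both THOC5 OE lists, 6 in both GFP OE lists, 1 in both Pi lists and 2 in both Ctrl lists, to be read against the same shares of all 1579 genes. Prkdc, the catalytic subunit of the DNA-dependent protein kinase, had 2 and 3 bound exons in THOC5 OE lists, 5 and 2 in GFP OE lists, 0 and 1 in Pi, and 0 and 3 in Ctrl. Polq, a repair polymerase, had its exon 11 of 25 bound in 5 lists, at percentiles from 0.985 to 15.4. Such low ranks lie at the weak end of their lists. In the matrix group, Hmcn1, which encodes hemicentin, had 7 and 5 bound exons in THOC5 OE lists, 9 and 4 in GFP OE lists, 0 and 2 in Pi, and 0 and 0 in Ctrl. All 4 vector lists were above all 4 others for Hmcn1, and this difference was not tested. The best Hmcn1 percentile was 56.8 and 55.2 in THOC5 OE lists, 42.8 and 46.0 in GFP OE lists, and 5.40 in Pi replicate 2. Hspg2, the gene of perlecan, had exon 35 of 97 bound in Pi replicate 2 and both Ctrl lists (98.4 to 98.9) and in no vector list. The phosphate transporter gene Slc20a1 had exon 8 of 11 bound in the same 3 lists, at 89.8 in Pi replicate 2 and 82.1 and 85.1 in Ctrl. The GFP OE and THOC5 OE conditions differ from Pi and Ctrl by a vector, so vector and these conditions cannot be told apart.

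Shared exons were set against condition with the Jaccard index. This index, the exons shared by 2 lists over the exons of either, averaged 0.266 within conditions (0.220 to 0.358, 4 pairs) and 0.231 between conditions (0.188 to 0.308, 24 pairs). The difference of 0.0349 had an exact permutation p of 0.0571 over all pairings of the 8 lists, above 0.05. It passed 0.05 with every list cut to the 2572 best peaks, the length of the shortest list (difference 0.0441, exact permutation p 0.00952). Leaving out Ctrl replicate 2, Pi replicate 1, Pi replicate 2, GFP OE replicate 1 or GFP OE replicate 2 also brought it below 0.05, with an exact permutation p of 0.0476, 0.0476, 0.0286, 0.0381 and 0.0476 in that order. Without Ctrl replicate 1 it was 0.0398 (exact permutation p 0.0952). Without THOC5 OE replicate 1 it was 0.00984 (exact permutation p 0.590), and without THOC5 OE replicate 2 it was 0.00853 (p 0.638), so the size of the difference rested on the THOC5 OE pair. An internal exon peak was overlapped by a peak of the other replicate for 63.4% in THOC5 OE, 51.9% in GFP OE, 42.5% in Pi and 47.7% in Ctrl. For intron peaks it was 57.9% in THOC5 OE, 41.2% in GFP OE, 33.9% in Pi and 46.9% in Ctrl. Internal exons were above introns in 4 of 4 conditions, by 6.37 points on average (SD 4.34, n = 4), and the exact sign-flip permutation p was 1/8, the smallest possible. Where an overlap had to cover 50% of both peaks, the difference was 2.51 points (exact permutation p 0.375). With the median threshold and with cut lists it was 6.39 and 7.09 points (exact permutation p 0.250 each), and not every condition then had internal exons above introns.

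Exons bound in both lists of a condition and in neither list of another were counted for each comparison, with no test. Between Pi and Ctrl, 35 of 2353 exons with a peak in any of the 4 lists (1.49%) had a peak in both Pi lists and no Ctrl list, and 126 (5.35%) in both Ctrl lists and no Pi list. Over all merged places the shares were 2.59% (221 of 8536) for Pi and 4.67% (399) for Ctrl. Between THOC5 OE and GFP OE, 140 of 2134 exons (6.56%) had a peak in each THOC5 OE list and no GFP OE list, and 38 (1.78%) the other way. Over all places these shares were 8.21% (649 of 7901) and 1.39% (110). Between GFP OE and Pi, 88 of 2060 exons (4.27%) had a peak in each GFP OE list and no Pi list, and 58 (2.82%) the other way, against 5.13% (411 of 8014) and 3.93% (315) of all places. By annotation, the exon share was below that of all places in 4 of the 6 directions and above it for Ctrl and not Pi and for GFP OE and not THOC5 OE. The shares follow unlike rules, since a peak of any class fills a place but only a peak annotated to the exon fills an exon. Where no peak of any class could overlap, 100 of the 2353 exons (Ctrl, not Pi) and 22 of the 2134 (GFP OE, not THOC5 OE) remained. Both are below the shares of all places. By annotation, exons bound in both lists of 1 condition and in no other list numbered 68 in THOC5 OE (1.96%), 14 in GFP OE (0.404%), 18 in Pi (0.52%) and 51 in Ctrl (1.47%). Of all 12362 merged places, 2.7% were in both THOC5 OE lists alone, 0.388% in both GFP OE lists alone, 0.768% in both Pi lists alone and 1.33% in both Ctrl lists alone. All 6 osteogenic lists and no Ctrl list held 3 exons (0.0866%), against 0.178% of all places. That a list has no peak in an exon does not show that THOC5 did not bind there.

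Genes of these exons could have a peak elsewhere on the side without the exon, and no share for other exons was taken. Of the 35 exons bound in Pi and not in Ctrl, the gene of 22 had some peak in a Ctrl list, and that of 16 another internal exon peak there. Of the 126 exons bound in Ctrl and not in Pi, the gene of 107 had some peak in a Pi list, and that of 75 another internal exon peak. Of the 140 exons bound in THOC5 OE and not in GFP OE, the gene of 120 had some peak in a GFP OE list, and that of 78 another internal exon peak. For the 38 in GFP OE and not THOC5 OE these numbers were 33 and 27. For the 88 in GFP OE and not Pi they were 72 and 56, and for the 58 in Pi and not GFP OE 33 and 20. A peak of another class overlapped the place on the absent side for some exons, which leaves 32 of the 35 (Pi, not Ctrl), 100 of the 126 (Ctrl, not Pi), 116 of the 140 (THOC5 OE, not GFP OE) and 22 of the 38 (GFP OE, not THOC5 OE).

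Among exons bound in Pi and not in Ctrl, the best ranked was exon 3 of 37 of Kmt2b, a histone methyltransferase (chr7, 30585930 to 30586468). It stood at 96.5 and 96.9 in THOC5 OE lists, 94.7 and 96.2 in GFP OE lists and 95.1 and 95.7 in Pi, and both Ctrl lists were without it. Their nearest peaks lay 16974 and 16972 bp away in the same gene. Kmt2b exon 3 thus belonged to all 6 osteogenic lists. Bptf, a subunit of a nucleosome remodeller, had exon 21 of 28 bound at 93.7 and 94.8 in Pi and in 3 of the 4 vector lists. Mia3, which loads collagen for export from the endoplasmic reticulum, had exon 4 of 27 bound at 86.0 and 87.3 in Pi and in 3 of the 4 vector lists. Qrich1 exon 4 of 11 (92.7 and 90.2), Zfp217 exon 5 of 7 (87.7 and 85.7), the transcription factor gene Glis3 exon 2 of 11 (83.0 and 88.5), Ankrd24 exon 17 of 20 (82.7 and 83.9) and Arhgap21 exon 8 of 24 (81.3 and 84.6) were annotated in the Pi lists alone. For Arhgap21 an intron peak overlapped the place in 3 other lists, with its centre 371 bp away in THOC5 OE replicate 2, 403 bp in GFP OE replicate 2 and 52 bp in Ctrl replicate 1.

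Among exons bound in Ctrl and not in Pi, exon 17 of 22 of Ogt, the enzyme that adds O-linked GlcNAc to proteins, stood at 99.6 in THOC5 OE replicate 1, 99.8 in GFP OE replicate 1, and 99.3 and 99.6 in Ctrl (chrX, 101673208 to 101673628). An Ogt intron peak overlapped the place in THOC5 OE replicate 2, 59 bp away. Exon 3 of 19 of Phldb2, which anchors microtubules at the cell cortex, stood at 98.9 and 99.2 in Ctrl and was in no other list. The Pi lists had a peak in another internal exon of Phldb2, 17044 and 16745 bp away, at 99.89 and 99.95. Exon 22 of 74 of Utrn (95.9 and 96.9) and exon 8 of 51 of Piezo1 (95.5 and 96.4), the gene of a mechanically gated cation channel, were also in the Ctrl lists alone. For Piezo1 exon 8 (chr8, 122501354 to 122501769) the nearest peak in the Pi lists lay outside the gene, 73626 and 382286 bp away. For Utrn exon 22 an intron peak of the same gene lay 3744 and 3980 bp away in the Pi lists. Setbp1 exon 2 of 6 stood at 96.4 and 97.5 in Ctrl and at 92.5 in THOC5 OE replicate 1. Myo9b, an unconventional myosin, had exon 2 of 39 bound in every list but the 2 of Pi, at 98.5 and 98.7 in THOC5 OE lists, 98.1 and 98.3 in GFP OE lists, and 95.3 and 96.0 in Ctrl. Dst exon 8 of 93 and Ubr4 exon 7 of 106 had an overlapping intron peak in Pi, in both lists for Dst (136 to 176 bp away) and in Pi replicate 2 for Ubr4 (33 bp away).

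Among exons bound in THOC5 OE and not in GFP OE, those of Zc3h11a and Mprip were in the THOC5 OE lists alone, with high ranks. Exon 12 of 17 of Zc3h11a, an mRNA export gene (chr1, 133626890 to 133627428), stood at 98.8 and 98.8. In the other 6 lists the nearest peak was in the 3' UTR of Zc3h11a, 5788 to 5927 bp away, at percentiles from 99.0 to 99.4. Exon 7 of 24 of Mprip, which binds myosin phosphatase (chr11, 59737310 to 59737848), stood at 98.2 and 98.5. Clip1, which tracks growing microtubule ends, had exon 9 of 24 bound at 96.6 and 96.7 in THOC5 OE and at 96.1 in Ctrl replicate 2. Atf7ip exon 2 of 15 (95.1 and 95.7) and Erbin exon 21 of 26 (94.7 and 95.3) were also shared with Ctrl replicate 2. The tensin genes, whose proteins tie actin to focal adhesions, were bound at Tns3 exon 17 of 31 (98.4 and 98.4) and Tns1 exon 24 of 33 (94.7 and 94.6) in THOC5 OE and in at least 3 lists of Pi and Ctrl each. Both tensin exons were thus missing from the GFP OE lists rather than particular to THOC5 OE.

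Of the 38 exons bound in GFP OE and not in THOC5 OE, 22 had no overlapping THOC5 OE peak of any class. Atrx, a chromatin remodeller, had exon 23 of 35 bound at 81.4 and 79.7 in GFP OE and at 76.1 in Ctrl replicate 1. Ercc6, which couples repair to transcription, had exon 5 of 21 bound at 75.2 and 71.5 in GFP OE. The Ercc6 exon ranked higher in Pi replicate 2 (80.1) and Ctrl replicate 2 (79.6). Dhx57 exon 5 of 24 (86.0 and 85.5) and Zfp608 exon 2 of 10 (71.1 and 65.7) were in the GFP OE lists alone. Xdh exon 26 of 36, Dst exon 53 of 93, Zzef1 exon 29 of 55 and Ep400 exon 14 of 52 were absent from THOC5 OE by annotation, yet a peak annotated to a neighbouring intron or exon overlapped the place in at least 1 THOC5 OE list. For Zzef1 those intron peaks had centres 190 and 205 bp away and percentiles of 90.7 and 89.0. For Ep400 they lay 277 and 333 bp away in a neighbouring internal exon.

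Between GFP OE and Pi, which share the medium and differ by the vector, exon 2 of 24 of the transcription factor gene Nfx1 (chr4, 40976596 to 40977134) and exon 3 of 18 of Parg, which removes poly(ADP-ribose), were bound in all 4 vector lists and no other. Nfx1 stood at 97.2 and 97.5 in THOC5 OE and 96.5 and 96.7 in GFP OE, and Parg at 94.5 and 94.0 in THOC5 OE and 92.8 and 91.8 in GFP OE. In all, 15 exons (0.433%) were in the 4 vector lists alone, against 0.874% of all merged places, and 5 (0.144%) in the 4 lists of Pi and Ctrl alone, against 0.283%. The microRNA silencing gene Tnrc6b (exon 8 of 25) and the transcription factor gene Mga (exon 8 of 23) were bound in every list but the 2 of Pi. Tnrc6b stood at 94.8 and 94.9 in THOC5 OE lists, 93.0 and 93.7 in GFP OE lists, and 91.2 and 91.7 in Ctrl. Cgnl1 exon 2 of 19, of a cell junction protein, stood at 94.5 and 96.1 in GFP OE and was in 5 lists, and Fnbp4 exon 5 of 17 stood at 95.3 and 94.8 in GFP OE and was in 3. A Fnbp4 peak annotated to an intron or another exon overlapped that place in THOC5 OE replicate 2 (94.1), Ctrl replicate 1 (90.2) and Ctrl replicate 2 (94.1).

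In the other direction, Rusc2 exon 2 of 12 was bound in the 4 lists of Pi and Ctrl, at 96.0 and 97.7 in Pi and 94.7 and 95.5 in Ctrl, and in no vector list. Its nearest peak in the GFP OE lists lay 521417 and 234899 bp away, outside the gene. Prrc2c exon 16 of 35 stood at 99.6 and 99.6 in Pi and 99.5 in Ctrl replicate 1, while exon 19 of the same gene was bound in all 8 lists. Speg, a kinase of the muscle myosin light chain kinase family, had exon 30 of 41 bound at 94.0 and 95.7 in Pi and 95.2 in Ctrl replicate 2. The lists without it had a 3' UTR peak of Speg 9134 to 9216 bp away. No GFP OE list held Tnrc6a exon 6 of 24 (94.9 and 93.8 in Pi) or Tnrc18 exon 25 of 28 (94.4 and 95.1 in Pi). These exons were not missing from every vector list. Tnrc18 stood at 93.9 and 94.8 in THOC5 OE, and Tnrc6a at 96.9 in THOC5 OE replicate 1. Vector lists held neither exon 31 of 37 of the chromatin remodeller gene Chd6 (92.6 and 93.3 in Pi) nor Pcnx3 exon 6 of 35 (93.4 and 91.9 in Pi).

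**Figure D5:**
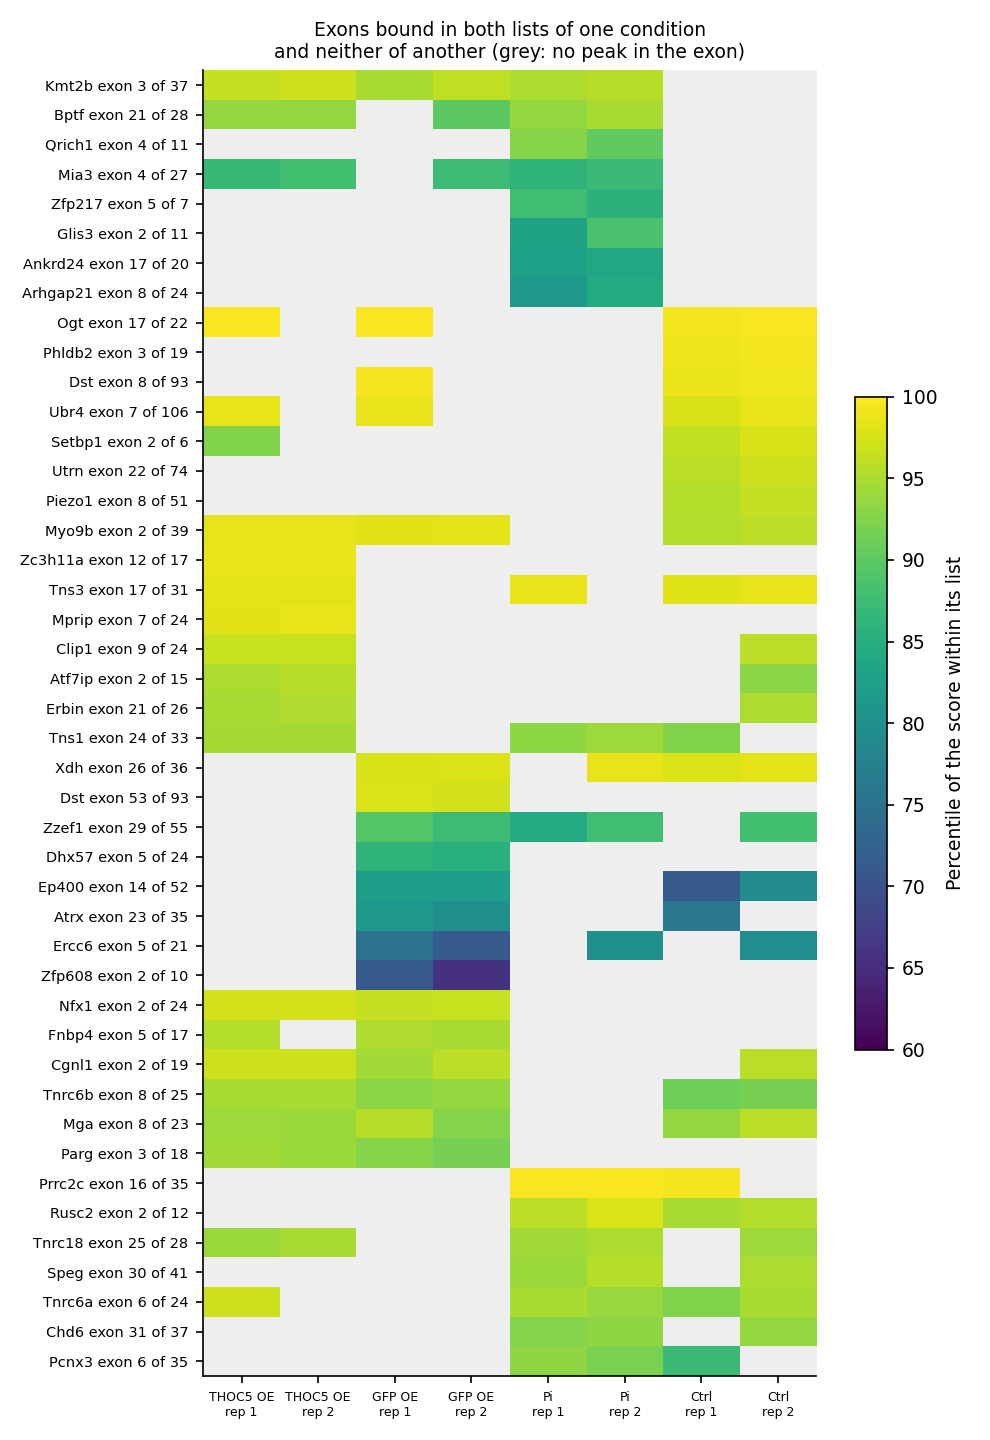
Percentile of the score (colour scale, 60 to 100) in each of the 8 lists for the exons named in the comparisons of conditions, 1 exon per line; grey means that no peak was annotated to the exon. Kmt2b exon 3 of 37 is coloured in the 6 osteogenic lists, and Zc3h11a exon 12 of 17 in the 2 THOC5 OE lists only.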

How the data were processed

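RIP-seq peak lists of 8 immunoprecipitates, 1 list per replicate, were used, and the other 8 of 16 samples (inputs) were not analysed here. FastQC, Bowtie2, MACS2, SAMtools and mm10 are named, without roles, per the submitters' processing notes. HOMER's annotatePeaks.pl placed the peaks in mm10 genes, per the file headers. Which program called these lists, with which settings and with or without the inputs, was not given in the sources used here. The deposited score of each peak is the authors' own, with no stated scale, and was turned into a percentile within its list. Lists were joined to samples through the condition abbreviation and number in the file headers.

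An exon was identified by the transcript and exon number of the annotation, and its gene by that transcript in the RefSeq table (GRCm38.p6), since the nearest gene named in the lists differed for 38.4% of internal exon peaks. Of 1625 transcripts, 2 had no match. Depth was not known, and neither transcript levels nor inputs entered any value. Condition values were compared by exact permutation of lists and within-list values by exact sign-flip permutation, with Benjamini-Hochberg adjustment at 0.05 (Python 3.11.15, pandas 2.3.3, numpy 2.4.6, scipy 1.17.1, matplotlib 3.10.9). The tests were checked on simulated data. Exons bound on 1 side only were counted with no test.

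Exons and genes named are the 12 exons of all 8 lists with the highest lowest percentile, the 10 genes with the most bound exons per list, per comparison and direction the 8 exons with the highest lower percentile, up to 5 members per gene group (17 groups) and Thoc5, with predicted genes passed over. An item that the rule also names is not reported here. Akna is named because the promoter table holds its sequence, and Shroom2, Ylpm1, Unc13c and the genes with 2 exons in all 8 lists were chosen after their values were seen. The members, lists and groups were chosen with earlier results of these data known. Alternatives were the median score as threshold, lists cut to 2572 peaks, non-coding exons added, no sex chromosomes, the 10 genes with the most peaks left out, exons matched by place, each list left out and a replicate block. One more, in which absence required that no peak of any class overlapped, was chosen after seeing the data.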

Additional observations from a re-analysis of the deposited data

How the results depend on the processing

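Internal exons ranked above introns in every setting tried, and 21.0 to 21.7 points above with each list left out in turn. Over the first and last exons the lead was 14.3 to 16.4 points without a list, 8.76 points (exact permutation p 0.0312) with cut lists, and 3.89 points (p 0.109) among peaks at or above the median score. In that setting THOC5 OE minus GFP OE turned to -0.0116 exons per gene and to 0.702 points of median percentile, GFP OE minus Pi turned to -0.797 points, Pi minus Ctrl was 5.86 points, the Jaccard difference was 0.0471 (exact permutation p 0.0476), and 21 exons (Pi, not Ctrl), 90 (THOC5 OE, not GFP OE) and 21 (GFP OE, not THOC5 OE) were counted. With lists cut to 2572 peaks, THOC5 OE minus GFP OE turned to 2.33 points of share, -0.0160 exons per gene and 0.588 points of percentile, Pi minus Ctrl was 2.35 points of percentile, the Jaccard difference was 0.0441 (exact permutation p 0.00952), and 87 exons were counted for THOC5 OE and not GFP OE. The Jaccard difference also passed 0.05 with non-coding exons added (0.0362, exact permutation p 0.0286), without sex chromosomes and scaffolds (0.0357, p 0.0381) and by place at 1 base (0.0354, p 0.0381), and was 0.00853 to 0.0485 without a list, the lowest 2 values being those without a THOC5 OE list. Without sex chromosomes and scaffolds the percentile over the 4 conditions passed 0.05 (range 2.89 points, exact permutation p 0.0476), and THOC5 OE minus GFP OE turned to 0.0221 points. Where absence required no overlapping peak of any class, 22 exons remained for GFP OE and not THOC5 OE. The cause of these changes was not tested.

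Without 1 list at a time, the share differed by -3.63 to 1.98 points for THOC5 OE minus GFP OE (above 0 without GFP OE replicate 1), -1.79 to 3.81 for GFP OE minus Pi (below 0 without GFP OE replicate 1), -6.28 to -3.53 for Pi minus Ctrl, and 3.53 to 6.70 over all conditions. Exons per gene differed by -0.173 to 0.197 for THOC5 OE minus GFP OE (below 0 without GFP OE replicate 2 or THOC5 OE replicate 1), 0.0411 to 0.411 for GFP OE minus Pi, -0.254 to -0.0724 for Pi minus Ctrl, and 0.153 to 0.411 over all. The median percentile differed by -1.29 to 0.727 for THOC5 OE minus GFP OE (above 0 without GFP OE replicate 2 or THOC5 OE replicate 2), 1.62 to 3.64 for GFP OE minus Pi, -0.314 to 0.508 for Pi minus Ctrl (below 0 without Ctrl replicate 1 or Pi replicate 2), and 2.44 to 3.74 over all. The replicate overlap difference was 4.92 to 8.25 points (2.51 at an overlap of 50% of both peaks), and 104 to 122 exons were in all remaining lists. With a single list left on a side, the counts reached 438 (GFP OE, not THOC5 OE; 38 to 438), 538 (THOC5 OE, not GFP OE; 140 to 538), 613 (GFP OE, not Pi; 88 to 613), 521 (Pi, not GFP OE; 58 to 521), 418 (Pi, not Ctrl; 35 to 418) and 789 (Ctrl, not Pi; 126 to 789), since 1 list then had to hold or lack the exon. The replicate numbers showed little pairing of the lists (correlations of deviations -0.0337 to 0.0515), but 2 lists per condition cannot exclude shared processing. A replicate block changed no call: the Jaccard difference stayed 0.0349 (exact permutation p 0.0833) and the share range 4.91 points (p 0.333). With 2 lists per condition, no pair of conditions can reach an exact permutation p under 0.333.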
